A study of Mus musculus with 8 samples.

Results

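The genes described here are the 3 members of the mouse Cdx family (Cdx1, Cdx2 and Cdx4) and 4 cofactors of Hox proteins (Meis1, Meis2, Pbx2 and Pbx3), 7 of the 23483 genes in a table of read counts per RefSeq transcript. They were chosen by name. Where a gene had several transcript rows, the row with the highest total was used. All 7 were present, and all 7 passed the filter on low counts.

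Cdx proteins are caudal-type homeobox transcription factors. In the mouse embryo they act downstream of Wnt, FGF and retinoic acid signals in the posterior growth zone, where they switch on Hox genes of the trunk. Cdx2 also specifies the trophectoderm of the blastocyst and, later, the intestinal epithelium. Meis and Pbx proteins belong to the TALE class of homeobox factors, which bind DNA jointly with Hox proteins and with each other and sharpen the choice of Hox target sites.

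Poly(A) RNA of C57BL/6 mouse cells grown at 5.5 mM glucose was sequenced in 4 groups of 2 libraries. The Set7 knock-down group was Sca1 cells transduced with a lentiviral shRNA against Set7, a lysine methyltransferase encoded by Setd7, and the NTC group was Sca1 cells with a non-target shRNA control vector. Both were selected with puromycin. The untreated Sca1 group carried no construct, and the mESC group was undifferentiated embryonic stem cells kept with LIF, a cytokine that holds mouse stem cells undifferentiated. Per the labels' protocols, Sca1 cells were stem cells that had been grown on gelatin without LIF and sorted with magnetic beads against Sca1. The labels do not say that replicates were separate cultures, so p-values measure only the spread between these libraries. In all Sca1 groups, fewer cells of a type and less RNA per cell cannot be told apart.

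Counts summed over genes ranged from 2507938 to 5080266 per library. Setd7 stood at 14.0 and 10.8 CPM (read counts scaled to a common library total with TMM factors) in the knock-down, against 60.7 and 66.6 CPM in NTC cells. In untreated Sca1 cells Setd7 was at 76.3 and 66.3 CPM, and in mESC at 11.2 and 16.5 CPM, near the level of the knock-down. The sort marker gene Ly6a did not set the Sca1 groups apart from stem cells. It stood at 9.81 and 12.5 CPM in the knock-down, 5.44 and 6.46 CPM in NTC, 12.98 and 4.42 CPM in untreated Sca1 cells and 9.85 and 5.72 CPM in mESC. A single row, NR_046233, held 12.0% of the counts of untreated replicate 2 and 11.5% of those of mESC replicate 2, against 0.403% to 1.62% in the other 6 libraries. Untreated replicate 2 and mESC replicate 2 were also the only libraries with library code 3, the final number of the sample description. With NR_046233 included, the chi-square per degree of freedom between replicates was 40.3 in untreated Sca1 cells and 54.9 in mESC. It was 2.08 in the knock-down and 1.54 in NTC. The chi-square was not computed without NR_046233, so it does not show how far replicates differed in other genes. The results below were therefore also obtained without each library.

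Promoter sequence from RefSeq (build GRCm38.p6), matched by symbol, was used for 5 of the 7 genes. Cdx1 and Pbx3 were not searched. The 250 bases before the start site are shown for 4 of them, 5' to 3' on the gene's strand. Cdx2 (chr5:147307250-147307499, minus strand) and Cdx4 (chrX:103321148-103321397, plus strand) are shown because Cdx2 was low and Cdx4 at 0 in stem cells and both were higher in Sca1 cells. Meis2 (chr2:116064620-116064869, minus strand) and Meis1 (chr11:19018970-19019219, minus strand) are shown because both were lower in the knock-down. Both Meis windows lie inside the annotated span of their gene, which ends at base 116067537 for Meis2 and 19019651 for Meis1. Their start sites are thus not the outermost ones. Capitals mark matches, on either strand, to 6 motifs: the POU octamer ATGCAAAT, the MEIS motif TGACAG, the PBX-HOX motif TGATNNAT, the CDX motif TTTATNG, the cAMP response element TGACGTCA and the LEF-TCF motif CTTTGAT. No match overlapped another.
Cdx2: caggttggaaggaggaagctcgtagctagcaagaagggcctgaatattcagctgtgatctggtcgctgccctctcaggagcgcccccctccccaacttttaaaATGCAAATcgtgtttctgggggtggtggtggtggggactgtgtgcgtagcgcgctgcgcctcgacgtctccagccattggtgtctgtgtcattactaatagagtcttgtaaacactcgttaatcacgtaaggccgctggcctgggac
Cdx4: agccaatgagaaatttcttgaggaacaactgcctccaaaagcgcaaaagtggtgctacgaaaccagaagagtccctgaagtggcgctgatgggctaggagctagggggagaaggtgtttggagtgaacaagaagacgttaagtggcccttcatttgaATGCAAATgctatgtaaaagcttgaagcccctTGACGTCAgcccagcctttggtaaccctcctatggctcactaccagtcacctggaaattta
Meis2: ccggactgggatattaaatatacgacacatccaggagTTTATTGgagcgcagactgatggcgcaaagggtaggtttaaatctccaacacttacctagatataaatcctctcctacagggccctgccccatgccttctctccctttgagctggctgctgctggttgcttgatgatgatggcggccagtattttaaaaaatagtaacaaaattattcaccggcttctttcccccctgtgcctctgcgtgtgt
Meis1: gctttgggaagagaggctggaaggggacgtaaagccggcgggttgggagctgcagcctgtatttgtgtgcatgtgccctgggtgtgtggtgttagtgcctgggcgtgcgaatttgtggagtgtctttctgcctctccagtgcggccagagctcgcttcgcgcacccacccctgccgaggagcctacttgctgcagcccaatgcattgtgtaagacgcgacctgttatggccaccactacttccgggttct
The octamer lay in both Cdx windows, with its first base 147 bases before the start site in Cdx2 and 93 bases before it in Cdx4. The cAMP response element lay 61 bases before the start site of Cdx4, and a CDX match lay 213 bases before that of Meis2. None of the 6 motifs was found in the Meis1 window or in the Pbx2 window, which is not shown. Among 32851 promoter windows of the same length, 1.60% held the octamer, 1.55% the cAMP response element, 9.81% the CDX motif, 15.9% the MEIS motif, 7.68% the PBX-HOX motif and 3.21% the LEF-TCF motif. The octamer and the response element were added to the search after the sequences were seen. These matches describe letters and not sites of binding.

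**Figure D1:**
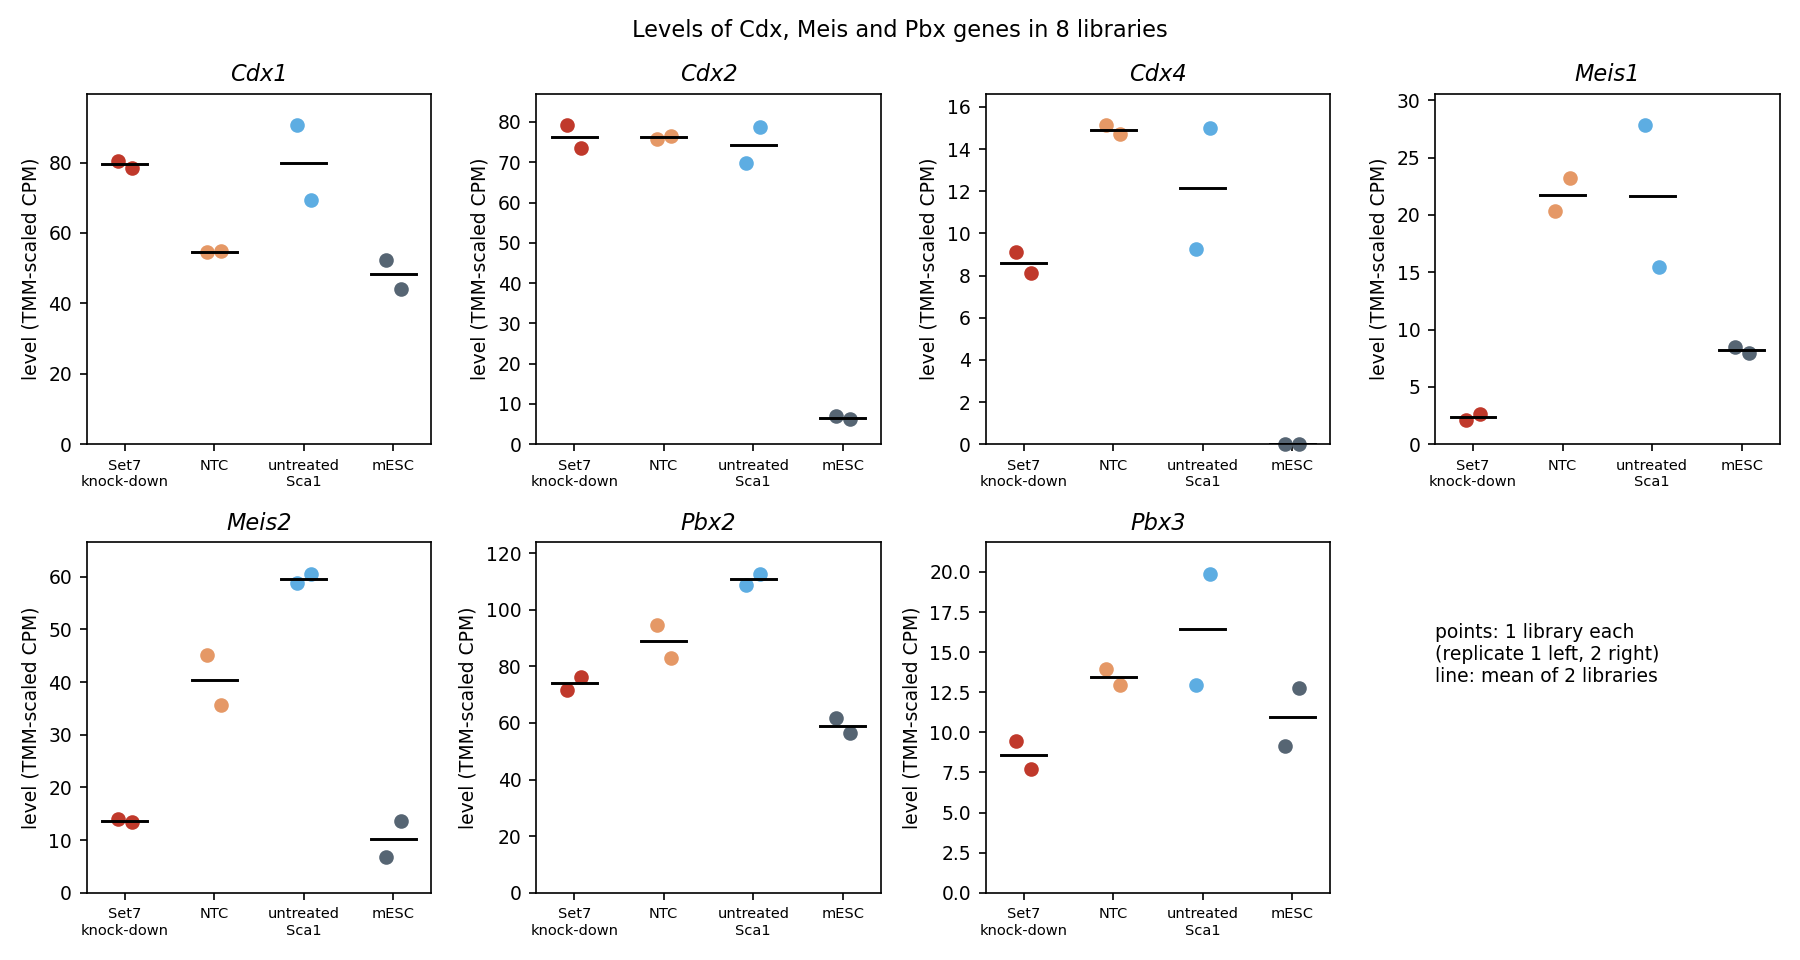
Levels of the 7 genes as TMM-scaled CPM (linear axis from 0) in each of the 8 libraries, by group, with the mean of each group as a line. Cdx2 sits between 69.8 and 79.2 CPM in all 6 Sca1 libraries and at 7.10 and 6.16 CPM in mESC, while Meis1 is lowest in the knock-down, at 2.10 and 2.64 CPM.

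The comparison of the knock-down with NTC cells addresses what lowering Set7 changes in Sca1 cells. Both Meis genes fell and Cdx1 rose, while Cdx2 differed by less than its replicates did. At an adjusted p of 0.05, 3 of the 7 genes were called, against 14.3% of the 13966 genes tested. By direction, 1 of 7 rose against 4.25% of all genes, and 2 of 7 fell against 10.1%. The median log2 fold change of the 7 genes was -0.67, against -0.00 over all genes.

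Meis1, a partner of Hox and Pbx proteins best known from blood stem cells and leukaemia, had 6 and 12 counts in the knock-down libraries, against 86 and 104 in NTC. Scaled to depth these were 2.10 and 2.64 CPM in the knock-down and 20.3 and 23.2 CPM in NTC. Both knock-down libraries lay far below both NTC libraries. The log2 fold change was -3.15 ± 0.34 (SE, n = 2 per group; quasi-likelihood test of edgeR, Benjamini-Hochberg adjusted p = 3.52e-06). The log2 ratio was -2.99 within library code 1 and -2.91 within code 2, the final numbers of the sample descriptions. Leaving out any 1 library kept the edgeR call, with log2 fold changes between -3.35 and -3.03 and adjusted p of at most 0.00128.

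Meis2, the closest relative of Meis1 in the set, was at 14.0 and 13.4 CPM in the knock-down, against 45.1 and 35.7 CPM in NTC. The groups did not overlap, and the knock-down libraries lay close together. Here and below a lack of overlap is description only, as the share of all genes without overlap was not computed. Its log2 fold change was -1.56 ± 0.24 (SE, n = 2 per group; edgeR adjusted p = 0.000158), and the ratios within library codes 1 and 2 were -1.65 and -1.38. The call was kept without each library, at an edgeR adjusted p of at most 0.0180. Both Meis genes were also lower in the knock-down than in untreated Sca1 cells, Meis1 by -3.18 ± 0.35 and Meis2 by -2.12 ± 0.24 on the log2 scale (SE; edgeR adjusted p = 7.61e-06 and 7.65e-06).

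Markers of other cell types moved with the Meis genes. The 10 smooth muscle markers summed to 563 and 586 CPM in the knock-down, against 1573 and 1612 CPM in NTC, and 7 of the 9 tested fell. The 10 neural markers summed to 153 and 142 CPM in the knock-down, against 320 and 287 CPM in NTC. Of 6 tested, 2 fell, Nes (log2 -2.20) and Sox11 (-0.92), and 1 rose, Tubb3 (0.52). Olig2 was at 0 in all libraries. Without knock-down replicate 2 1 neural marker fell, and without any 1 of the 4 libraries compared none rose. The 10 pluripotency markers moved the other way, with sums of 2748 and 2652 CPM in the knock-down, against 2184 and 2093 CPM in NTC. Of these 10, all tested, Sox2 and Klf2 rose and none fell. The count of rises was 0 without any 1 of the 4 libraries compared, 4 without either untreated library and 6 without either mESC library. The part of these cell types in the fall of Meis1 and Meis2 was not tested. None of the 7 tested among 14 blood and endothelial progenitor markers was called lower with Meis1, and Myb was called higher. The list summed to 168 and 189 CPM in the knock-down, against 154 and 161 CPM in NTC. Most of that sum was Pecam1, at 90.4 and 103 CPM in the knock-down and 82.0 and 85.1 CPM in NTC. Pecam1 was higher still in mESC, at 157 and 169 CPM. Of the same list, Lmo2 was at 14.7 and 17.4 CPM in the knock-down, against 24.6 and 21.2 CPM in NTC. Runx1 was at 11.9 and 16.0 CPM in the knock-down, against 22.2 and 26.5 CPM in NTC. Both were thus lower in the knock-down libraries, though neither was called. Ptprc and Hba-x, which mark blood cells, were at or near 0.

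Cdx1, a direct target of Wnt and retinoic acid signals, was at 80.6 and 78.5 CPM in the knock-down, against 54.6 and 54.8 CPM in NTC. Replicates lay close together in each group, and the groups did not overlap. The log2 fold change was 0.54 ± 0.15 (SE, n = 2 per group; edgeR adjusted p = 0.0214), and the ratios within library codes 1 and 2 were 0.56 and 0.51. The call was lost without any 1 of the 4 libraries compared (edgeR adjusted p of 0.153 to 0.169), while the fold change stayed between 0.52 and 0.56. Against untreated Sca1 cells, at 90.5 and 69.4 CPM, Cdx1 in the knock-down showed no rise. That log2 difference was -0.02, with a 95% interval of -0.34 to 0.30 (edgeR adjusted p = 0.948).

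Cdx2 was at 79.2 and 73.4 CPM in the knock-down, against 75.9 and 76.5 CPM in NTC. The knock-down libraries lay on both sides of the NTC libraries. The log2 difference was -0.00 with a 95% interval of -0.28 to 0.28 (edgeR adjusted p = 0.997).

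Cdx4, which like the other Cdx genes acts on posterior Hox genes, was at 9.11 and 8.13 CPM in the knock-down, against 15.1 and 14.7 CPM in NTC. The groups did not overlap, but the log2 fold change of -0.80 ± 0.29 did not pass (SE, n = 2 per group; edgeR adjusted p = 0.0735). It passed in a fit of these 2 groups alone (0.00395), and also without either untreated or either mESC library (0.0329 to 0.0448) and without the filter on low counts (0.0401). It did not pass without any 1 of the 4 libraries compared (0.229 to 0.402), and the fold change stayed between -0.87 and -0.71 on leaving out each library.

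The Pbx genes encode the partners that bring Meis and Hox proteins together on DNA. Pbx2 was at 71.8 and 76.3 CPM in the knock-down, against 94.8 and 82.9 CPM in NTC, and Pbx3 was at 9.46 and 7.69 CPM, against 13.9 and 12.9 CPM. Neither gene's groups overlapped, which with 2 libraries per group does not by itself show a difference. Neither gene passed the test. The log2 differences were -0.26 for Pbx2 (95% interval -0.53 to 0.01, edgeR adjusted p = 0.209) and -0.67 for Pbx3 (-1.26 to -0.07, adjusted p = 0.135). Both passed in a fit of these 2 groups alone, at edgeR adjusted p of 0.0397 and 0.0196. That fit called 4416 of 13488 genes. Both Pbx genes also passed against untreated Sca1 cells, with log2 fold changes of -0.58 ± 0.13 for Pbx2 and -0.93 ± 0.29 for Pbx3 (SE; edgeR adjusted p = 0.00549 and 0.0374). Against that control 2406 of 13966 genes were called.

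**Figure D2:**
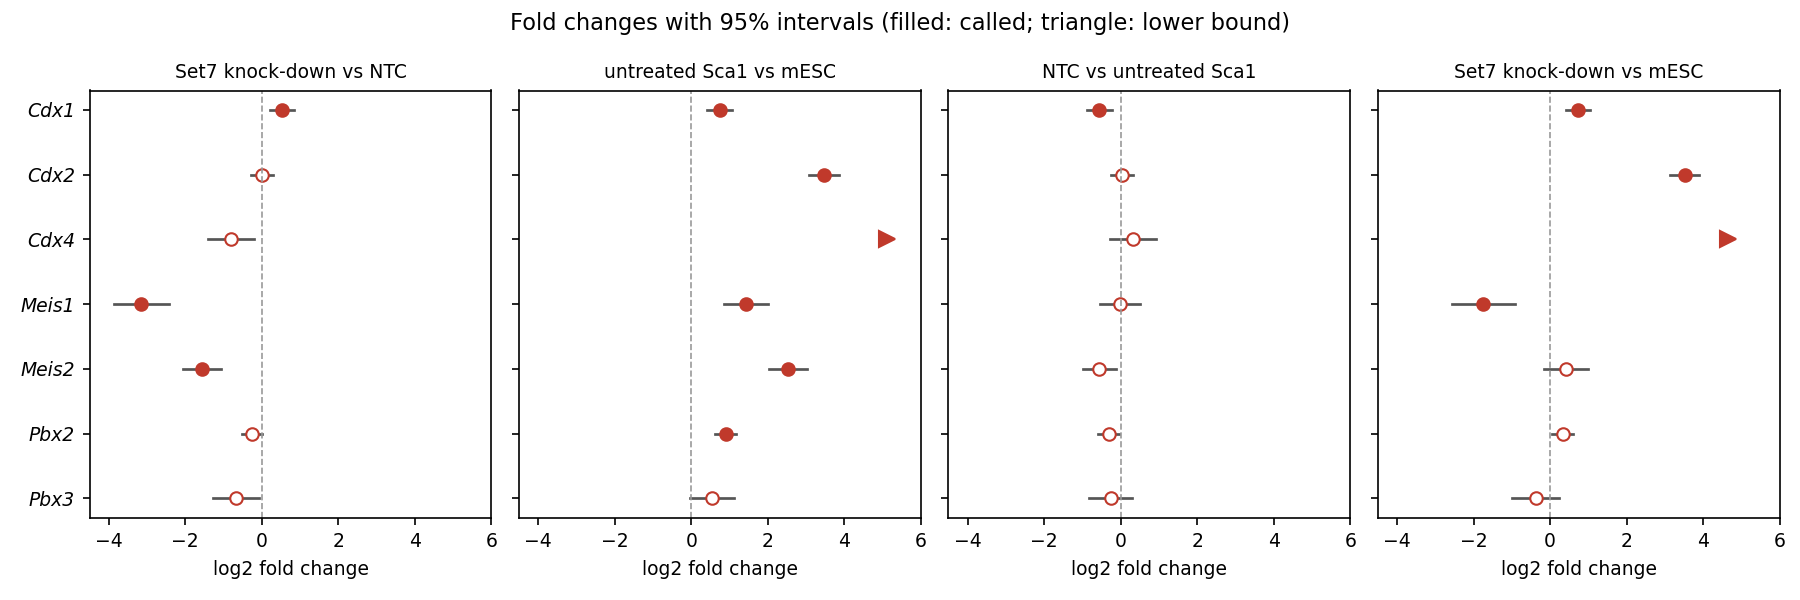
Log2 fold change of the 7 genes in 4 comparisons, each named with the group on top of the ratio first. Lines are 95% intervals of the edgeR fit, filled points are called at an adjusted p of 0.05, and triangles mark lower bounds for Cdx4, which had no count in mESC. Meis1 is below 0 in the knock-down against both NTC (-3.15) and mESC (-1.74), while Cdx2 lies near 0 against NTC and at 3.52 against mESC.

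Untreated Sca1 cells were set against mESC to see what changed with differentiation and sorting. Here 6 of the 7 genes rose and none fell, against 35.5% of all genes called, which splits into 18.7% higher and 16.8% lower. The median log2 fold change of the 7 was 1.43, against -0.01 over all genes. Pbx3 was the one gene that did not pass.

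Cdx4 was at 9.27 and 15.0 CPM in untreated Sca1 cells, with 30 and 34 counts, and had no count in either mESC library. It was at least 34.6-fold higher, with 3 counts over the mESC group as the floor, which covers counting error only. Cdx2 was at 69.8 and 78.6 CPM in untreated Sca1 cells, against 7.10 and 6.16 CPM in mESC. The log2 fold change of Cdx2 was 3.48 ± 0.18 (SE, n = 2 per group; edgeR adjusted p = 2.27e-10), with ratios of 3.21 and 3.57 within library codes 2 and 3. Cdx1 was at 90.5 and 69.4 CPM in untreated Sca1 cells, against 52.4 and 44.0 CPM in mESC, a log2 fold change of 0.74 ± 0.15 (edgeR adjusted p = 0.00112). Cdx1 was thus already present in stem cells, whereas Cdx2 was low and Cdx4 had no count there.

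Meis2 was at 58.7 and 60.5 CPM in untreated Sca1 cells, against 6.87 and 13.6 CPM in mESC. The mESC libraries differed from each other, and both lay far below the Sca1 libraries. Its log2 fold change was 2.53 ± 0.24 (SE, n = 2 per group; edgeR adjusted p = 2.64e-07), and lay between 2.12 without mESC replicate 1 and 3.11 without mESC replicate 2. Meis1 was at 27.8 and 15.5 CPM in untreated Sca1 cells, against 8.47 and 7.92 CPM in mESC. The Sca1 libraries lay apart from each other, both above the mESC libraries. The log2 fold change of Meis1 was 1.43 ± 0.28 (edgeR adjusted p = 0.000605), or 0.91 without untreated replicate 1 (0.0396) and 1.77 without untreated replicate 2 (0.000137).

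Pbx2 was at 109 and 113 CPM in untreated Sca1 cells, against 61.6 and 56.6 CPM in mESC. Its log2 fold change was 0.91 ± 0.13 (SE, n = 2 per group; edgeR adjusted p = 3.71e-05), with ratios of 0.82 and 0.99 within library codes 2 and 3. Pbx3 was at 12.98 and 19.9 CPM in untreated Sca1 cells, against 9.16 and 12.8 CPM in mESC. The groups of Pbx3 touched without overlapping, and the log2 difference of 0.55 (95% interval -0.03 to 1.13) did not pass (edgeR adjusted p = 0.132). Without untreated replicate 1 it was 0.86 and passed (0.0484), and without untreated replicate 2 it was 0.25 and did not (0.591).

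Markers of several cell types also differed between untreated Sca1 cells and mESC, in both directions. The 10 smooth muscle markers summed to 2194 and 1696 CPM in untreated Sca1 cells, against 174 and 155 CPM in mESC, and all 9 tested rose. The 10 neural markers summed to 321 and 322 CPM in untreated Sca1 cells, against 84.9 and 72.0 CPM in mESC, and 3 of the 6 tested rose and none fell. The 10 pluripotency markers summed to 2363 and 2033 CPM in untreated Sca1 cells, against 3746 and 3459 CPM in mESC, with 7 of 10 lower and 1 higher. Trophectoderm and intestinal markers were followed because Cdx2 acts in both tissues. The 14 trophectoderm markers summed to 422 and 450 CPM in untreated Sca1 cells, against 144 and 126 CPM in mESC, and 8 of the 12 tested were higher and 1 lower. Most of that sum in Sca1 cells was the keratin genes Krt18 and Krt8, which many epithelia share, and Tpbpa, which marks placental spongiotrophoblast, was at 0 in all libraries. The 13 intestinal markers summed to 135 and 79.5 CPM in untreated Sca1 cells, against 190 and 197 CPM in mESC. Hnf4g, Fabp2 and Tff3 of that list were at 0 in every library, Gpa33 made most of the sum and fell (log2 -0.87 ± 0.16 SE, edgeR adjusted p = 0.000482), and Sis had at most 0.350 CPM. The part of these cell types in the rise of the 6 genes was not tested.

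The NTC and untreated Sca1 groups differ in the vector, the virus and the puromycin selection, which cannot be told apart. They also differ in library code, with 1 and 2 in NTC and 2 and 3 in untreated cells. Code 3 was that of untreated replicate 2, the library with 12.0% of its counts in NR_046233. The difference in code cannot be told apart from the others either. Only Cdx1 was called among the 7 genes, against 4.99% of all genes, which splits into 3.88% higher and 1.11% lower. It was lower in NTC, at 54.6 and 54.8 CPM, against 90.5 and 69.4 CPM in untreated cells (log2 -0.56 ± 0.15 SE, n = 2 per group; edgeR adjusted p = 0.0426). The call was lost without NTC replicate 1 (0.311), NTC replicate 2 (0.274), untreated replicate 1 (0.300) or either knock-down library (0.104 and 0.106). Without untreated replicate 1 the log2 fold change was -0.34. By DESeq2 the adjusted p was 0.0562, and with library totals alone in edgeR it was 0.225.

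The other 6 genes did not pass between NTC and untreated cells. Meis2 stood at 45.1 and 35.7 CPM in NTC, against 58.7 and 60.5 CPM in untreated cells, with no overlap (log2 -0.56, 95% interval -0.99 to -0.13; edgeR adjusted p = 0.124). Meis2 passed in a fit of these 2 groups alone (0.0342) and without mESC replicate 1 (0.0187) or mESC replicate 2 (0.0198). The NTC libraries of Meis1, at 20.3 and 23.2 CPM, lay between the untreated libraries, at 27.8 and 15.5 CPM. The log2 difference of Meis1 was -0.03, with a 95% interval of -0.55 to 0.49. For Cdx2 the log2 difference was 0.04 (95% interval -0.25 to 0.33), for Cdx4 0.33 (-0.27 to 0.94), for Pbx2 -0.32 (-0.59 to -0.05) and for Pbx3 -0.26 (-0.83 to 0.31).

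The knock-down was also set against mESC, with which the comparisons above share libraries. Here 4 of the 7 genes were called, 3 higher and 1 lower, against 25.9% of all genes, which splits into 13.5% higher and 12.4% lower. Cdx2 was higher by 3.52 ± 0.18 and Cdx1 by 0.72 ± 0.15 on the log2 scale (SE, n = 2 per group; edgeR adjusted p = 4.39e-10 and 0.00172). Cdx4 was at least 25.3-fold higher, with 63 counts in the knock-down and none in mESC. Meis1 was lower, at 2.10 and 2.64 CPM in the knock-down, against 8.47 and 7.92 CPM in mESC (log2 -1.74 ± 0.39 SE, edgeR adjusted p = 0.00278). The Meis1 call was kept without each library, at an edgeR adjusted p of at most 0.0408.

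Meis2 in the knock-down, at 14.0 and 13.4 CPM, lay close to mESC replicate 2 at 13.6 CPM and above mESC replicate 1 at 6.87 CPM. Its log2 difference from mESC was 0.41 (95% interval -0.17 to 0.99, edgeR adjusted p = 0.308). It was 0.00 without mESC replicate 1 (0.996), and 0.99 and called without mESC replicate 2 (0.0210). Pbx2 did not pass (log2 0.33, 95% interval 0.05 to 0.61, edgeR adjusted p = 0.0761), except without mESC replicate 1 (0.0435). Pbx3 did not pass either (-0.38, -0.99 to 0.23, adjusted p = 0.374).

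Levels were compared between genes per kilobase of transcript, with lengths of 1750 to 3697 bases from GENCODE vM21. Per length, Cdx1 made 53.7% and 55.1% of the summed Cdx level in the knock-down, 43.1% and 43.1% in NTC, 59.2% and 48.3% in untreated Sca1 cells and 90.5% and 90.2% in mESC. Cdx2 made 40.9% and 39.9% in the knock-down, 46.3% and 46.6% in NTC, 35.4% and 42.4% in untreated cells and 9.48% and 9.78% in mESC. Cdx4 never exceeded 10.6%. In NTC cells alone the share of Cdx2 was above that of Cdx1 in both libraries. The summed Cdx level was 85.7 and 81.5 CPM per kilobase in the knock-down, 72.5 and 72.6 in NTC, 87.4 and 82.1 in untreated Sca1 cells and 33.1 and 27.9 in mESC.

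**Figure D3:**
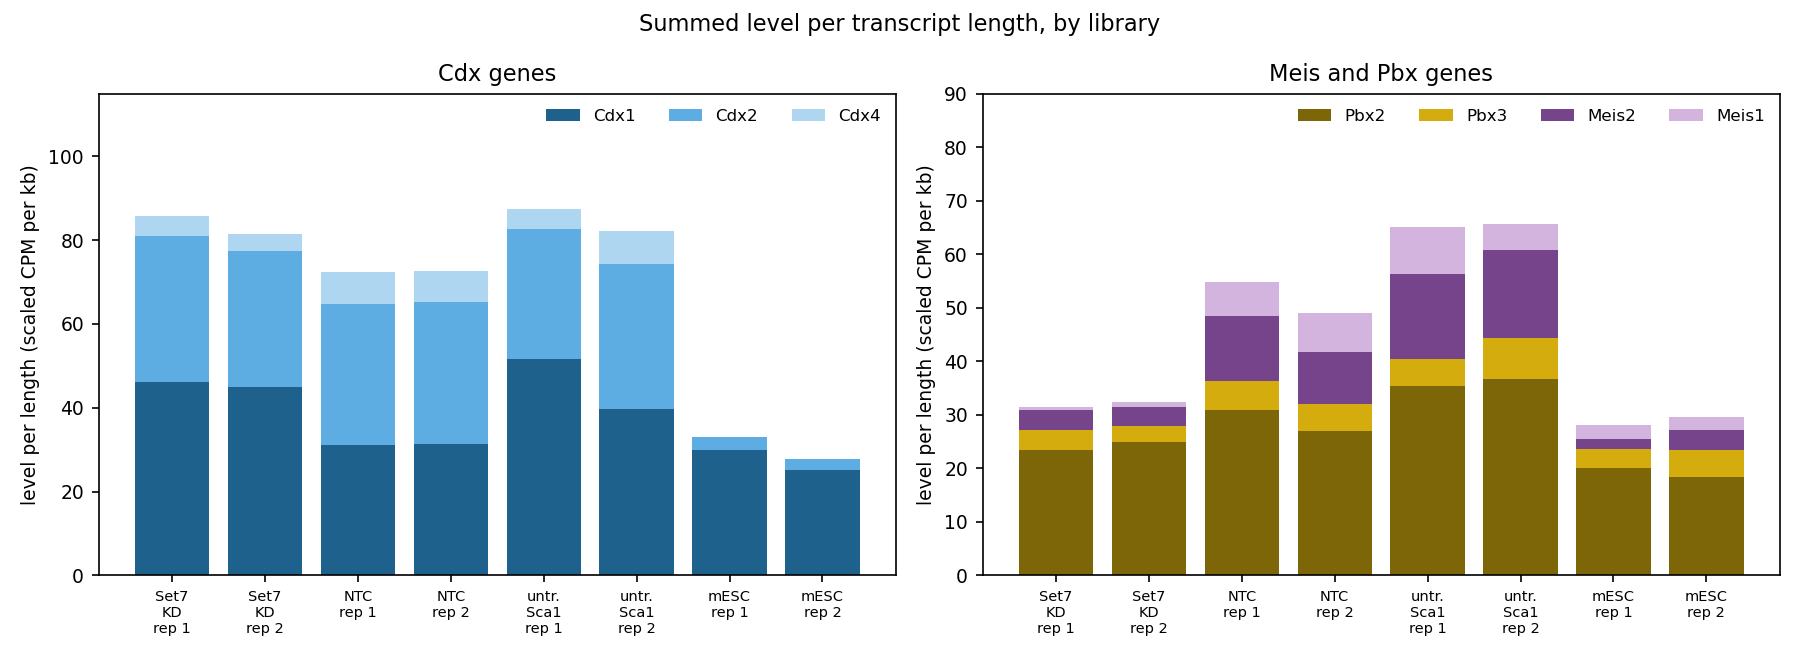
Summed level per transcript length (TMM-scaled CPM per kilobase, linear axis from 0) of the Cdx genes and of the Meis and Pbx genes in each library, stacked by gene. The Cdx sum is between 72.5 and 87.4 in all Sca1 libraries, whereas the Meis and Pbx sum is 31.5 and 32.3 in the knock-down, near the 28.1 and 29.5 of mESC.

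The Meis and Pbx genes behaved differently as a sum. Their level per length was 31.5 and 32.3 CPM per kilobase in the knock-down, 54.9 and 48.9 in NTC, 65.1 and 65.6 in untreated Sca1 cells and 28.1 and 29.5 in mESC. Pbx2 was the main component in every library, at 74.3% and 77.0% in the knock-down, 56.3% and 55.2% in NTC, 54.5% and 56.0% in untreated cells and 71.4% and 62.4% in mESC. The share of Meis1 was 2.09% and 2.56% in the knock-down, 11.6% and 14.8% in NTC, 13.4% and 7.37% in untreated cells and 9.42% and 8.39% in mESC.

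Across the 8 libraries the 7 genes fell into unlike patterns, given here as description because the points share groups and depth. Log2 CPM of Cdx2 and Cdx4 had a Pearson correlation of 0.988, and Meis2 and Pbx2 one of 0.916. Meis1 and Cdx1 had one of -0.192. Among 8975 other genes of at least 20 CPM in some group, the closest to Cdx2 were Nsd2 (0.998) and Gadd45g (0.997), and the closest to Cdx4 were Gprc5c (0.999) and Dsp (0.996). Those closest to Cdx1 were Psph (0.968) and Atf4 (0.964). Emp1 (0.994) and Serpine2 (0.973) were closest to Meis1, Ssbp3 (0.989) and Pfn2 (0.985) to Meis2, Armcx2 (0.988) and Dpp8 (0.982) to Pbx2, and Arhgap10 (0.967) and Lrrc20 (0.962) to Pbx3.

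The transcript rows gave no view of isoforms. The 2 Meis1 rows were identical in all libraries. Of 6 Meis2 rows, 4 were identical and the other 2 held 856 counts in all against 871, the difference lying in the NTC and untreated libraries. The Cdx genes, Pbx2 and Pbx3 had 1 row each.

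Other TALE genes were followed in a list of 14, of which 11 were tested. In the knock-down against NTC 3 fell and none rose, with a median log2 fold change of -0.67. Counts for this and the next lists stand beside 4.25% of all genes higher and 10.1% lower in the knock-down against NTC, and 18.7% higher and 16.8% lower in untreated Sca1 cells against mESC. Pknox2 fell by 1.59 ± 0.33 and Irx3 by 1.48 ± 0.44 on the log2 scale (SE, n = 2 per group; edgeR adjusted p = 0.00285 and 0.0309). The count of falls was 1 without knock-down replicate 2, and 5 without either mESC library. The call of Pknox2 was lost without knock-down replicate 2 (0.0539), and that of Irx3 without any 1 of the 4 libraries compared. In untreated Sca1 cells against mESC, 7 of 11 rose and none fell (4 rose without untreated replicate 1).

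Of 12 partner and inhibitor genes, all tested, 3 fell in the knock-down against NTC and none rose. Zfp503, a zinc-finger repressor gene, was at 7.36 and 5.50 CPM in the knock-down, against 23.2 and 22.7 CPM in NTC (log2 -1.87 ± 0.28 SE, n = 2 per group; edgeR adjusted p = 0.000158). Pbxip1, whose human product binds Pbx proteins and blocks their DNA binding, fell by 0.74 ± 0.18, and Zfp703 fell by 0.78 ± 0.23 (edgeR adjusted p = 0.00872 and 0.0270). The count was 1 without either knock-down library or NTC replicate 1, where Pbxip1 and Zfp703 were not called. Zfp703 was also lost without NTC replicate 2 (0.183). Against untreated Sca1 cells Pbxip1 was at -0.16 (0.638). In untreated Sca1 cells against mESC 4 of the 12 rose and 2 fell (1 fell without either untreated library or mESC replicate 2), and the share that fell was close to the 16.8% over all genes.

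Among 21 genes of the Wnt, FGF and retinoid inputs to Cdx, 6 fell and none rose in the knock-down against NTC. Cyp26a1, which breaks down retinoic acid, was at 14.7 and 16.3 CPM in the knock-down, against 65.9 and 63.3 CPM in NTC (log2 -2.05 ± 0.19 SE, n = 2 per group; edgeR adjusted p = 4.30e-07). The ligand gene Wnt5a fell by 1.93 ± 0.20 and the receptor gene Rara by 0.73 ± 0.18 (edgeR adjusted p = 2.03e-06 and 0.0116). The count was 2 without either knock-down library or NTC replicate 1 and 3 without NTC replicate 2, and the call of Rara was lost in each of these. Wnt8a stood at 68.6 and 74.3 CPM in the knock-down, against 47.7 and 52.8 CPM in NTC, and was not called. In untreated Sca1 cells against mESC 13 of the 21 rose and 2 fell (1 fell without either untreated library or mESC replicate 2). Wnt5a rose by 5.68 ± 0.36 and Wnt8a by 3.81 ± 0.29 (edgeR adjusted p = 2.45e-09 and 3.21e-08). With few counts in mESC, the value for Wnt5a was 5.06 without mESC replicate 1 and 6.86 without mESC replicate 2. Cyp26a1 was also higher in NTC than in untreated cells, at 65.9 and 63.3 CPM, against 32.8 and 34.9 CPM (log2 0.94 ± 0.18 SE, edgeR adjusted p = 0.00563), a call lost without NTC replicate 1 (0.113) or NTC replicate 2 (0.0751).

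Hox genes are the main known targets and partners of these factors, and they fell together with the Meis genes. In the knock-down against NTC, 8 of 11 tested genes of paralog groups 1 to 4, 15 of 15 of groups 5 to 9 and 4 of 6 of groups 10 to 13 fell, and none rose. Hoxa9, a partner of Meis1, was at 3.50 and 3.74 CPM in the knock-down, against 18.4 and 18.3 CPM in NTC (log2 -2.32 ± 0.31 SE, n = 2 per group; edgeR adjusted p = 4.61e-05). Hoxd3 was at 15.8 and 16.7 CPM in the knock-down, against 88.9 and 81.4 CPM in NTC (-2.38 ± 0.18, adjusted p = 3.04e-08). Without knock-down replicate 2, 4 genes of groups 1 to 4 and 4 of groups 5 to 9 fell. Without NTC replicate 2, 9 of groups 5 to 9 fell, and against untreated Sca1 cells 8 did. In untreated Sca1 cells against mESC, 11 of 11, 15 of 15 and 5 of 6 rose, and 1 of the last group fell. In the knock-down 13 of 15 genes of groups 5 to 9 stayed higher than in mESC.

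**Figure D4:**
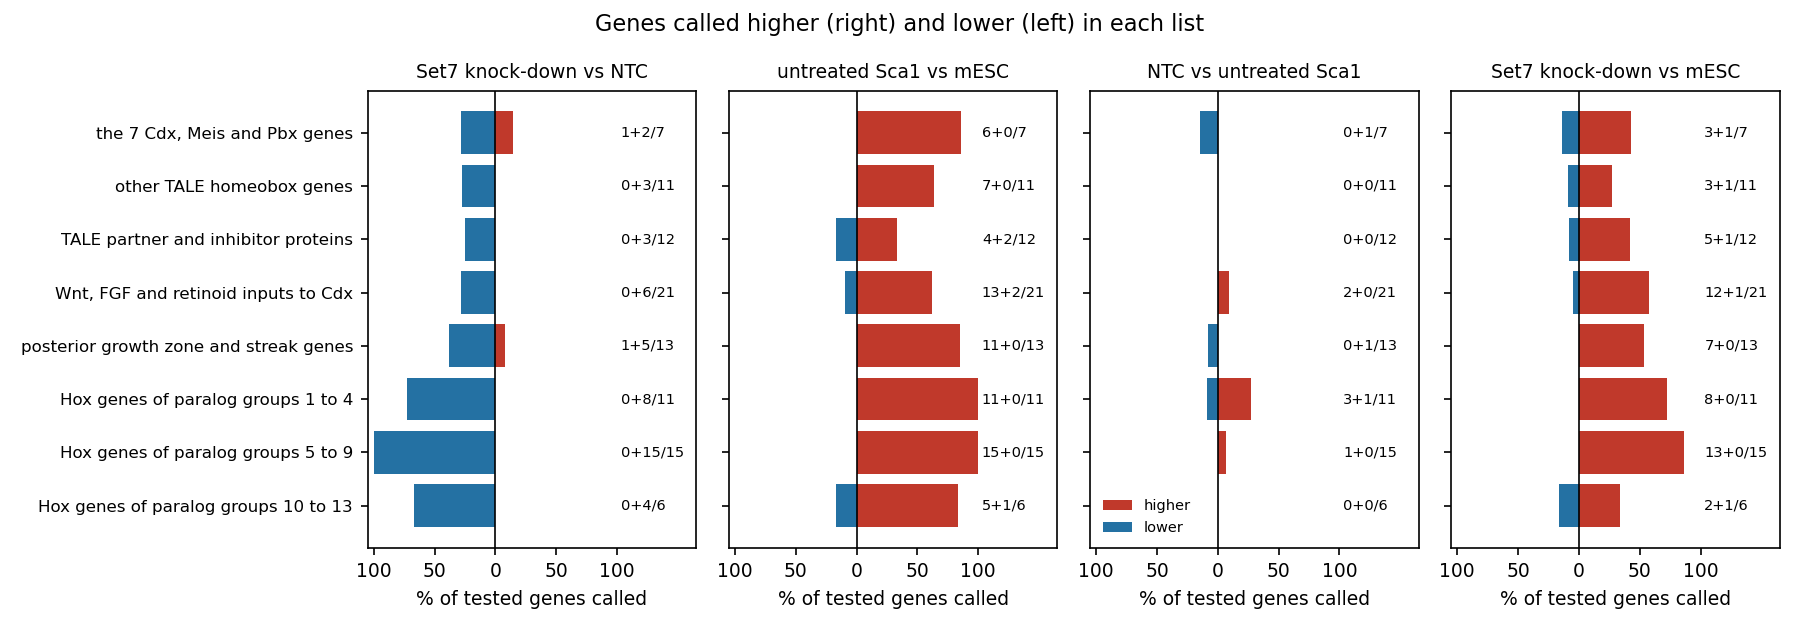
Share of the tested genes of each list called higher (right, red) or lower (left, blue) at an adjusted p of 0.05 in each comparison, with the numbers higher + lower / tested. In the knock-down against NTC all 15 Hox genes of groups 5 to 9 are lower, against 2 of the 7 Cdx, Meis and Pbx genes.

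Genes of the posterior growth zone, where Cdx factors act, and of the primitive streak were followed as a list. In the knock-down against NTC 5 of 13 tested fell and 1, Eomes, rose, with a median log2 fold change of -0.46. Foxc1 fell by 2.91 ± 0.48 and Gdf11 by 1.38 ± 0.34, while Eomes rose by 1.08 ± 0.27 (SE, n = 2 per group; edgeR adjusted p = 0.000408, 0.0102 and 0.0126). The count of falls was 1 or 2 without any 1 of the 4 libraries compared, and the fall of Gdf11 was lost without either knock-down library or NTC replicate 1, by DESeq2 (0.066) and against untreated Sca1 cells (-0.83, 0.155). The rise of Eomes was lost without knock-down replicate 2 or either NTC library, and against untreated Sca1 cells Eomes was at -0.07. The gene T, encoding Brachyury, was at 93.5 and 111 CPM in the knock-down, against 87.9 and 90.3 CPM in NTC, and was not called. In untreated Sca1 cells against mESC 11 of 13 rose and none fell.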

How the data were processed

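Poly(A) RNA from 8 libraries was sequenced on a Genome Analyzer IIx, per the labels. The authors deposited a table of raw read counts for 29614 RefSeq transcripts. BWA 0.5.9, SAMtools 0.1.17 and edgeR 0.19 are named in the submitters' processing notes without their roles. Build, counting tool and strand setting are not stated in the sources used.

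Transcript rows were named from RefSeq tables (28985 rows) or GENCODE vM21 (173), and 456 kept their accession. The row with the highest total was kept for each of 23483 genes, so reads shared between transcripts or with near copies of a gene can be counted more than once or lost. The counts were tested with edgeR 4.0.16 in R 4.3.3 (TMM scaling, filterByExpr, robust quasi-likelihood fit over the 8 libraries, a mean for each group, 4 residual degrees of freedom). P-values were adjusted by Benjamini and Hochberg over the 13966 genes that passed the filter, with a threshold of 0.05. Standard errors were the log2 fold change divided by the root of F, and 95% intervals used the fit's degrees of freedom. Fold changes against a group at 0 were bounded with 3 counts over that group, which like the intervals of counts covers counting error only. The fit was also tested on simulated counts. In the knock-down against NTC it recovered 13.4% of 1.5-fold changes, 32.8% of 2-fold changes and 97% of 4-fold changes. The simulated spread between libraries was set above the common spread fitted to these data, so these shares do not carry over directly.

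The genes and the lists around them were chosen with earlier results of these data known. Named were all 7 genes, up to 3 called genes of smallest p from each other list, and the 2 genes most correlated with each of the 7 across libraries, with T, Wnt8a, Ptprc, Hba-x and Sis added after their values were seen. One gene that this rule names is not reported here. Alternatives were other size factors, DESeq2 1.42.0, other filters on low counts, other choices of transcript row, a fit of the compared groups alone, the library code as a replicate block, untreated Sca1 cells as control and each library left out.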

Additional observations from a re-analysis of the deposited data

How the results depend on the processing

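Of 28 fold changes of the 7 genes, 511 alternative values were obtained. Of these, 469 kept their direction and their side of the threshold, 17 passed newly, 12 no longer passed and 13 turned direction. The turned values were small or rested on 1 library. For Cdx2 in the knock-down against NTC the log2 values were 0.0105 with RLE size factors, 0.0112 by DESeq2, 0.0024 with every transcript row its own feature, between -0.0503 and 0.0558 on leaving out each library, and 0.0409 against untreated Sca1 cells. For Cdx1 the value against untreated Sca1 cells was -0.0206. In NTC against untreated Sca1 cells, Meis1 was at 0.0495 with library totals only. Leaving out each library gave values there between -0.355 and 0.50 for Meis1, -0.0432 and 0.123 for Cdx2, -0.0072 and 0.682 for Cdx4, and -0.562 and 0.0467 for Pbx3, with both ends at an untreated library. Among 2137 alternative values of other named genes, 118 no longer passed and 1, Eomes at -0.0662 against untreated Sca1 cells, turned.

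Of the 7 genes, 6 were called in the knock-down against NTC in a fit of those groups alone. In NTC against untreated Sca1 cells 0 were called with library totals only, 0 by DESeq2 and 2 in a fit of those groups alone. Over all genes, the knock-down against NTC had 1278 calls among 13966 by DESeq2 and 4416 among 13488 in a fit of those groups alone. NTC against untreated Sca1 cells had 1148 calls among 19467 without the filter on low counts. The cause was not tested. Leaving out each library gave 2 to 4 of the 7 genes and 648 to 2826 genes called in the knock-down against NTC, and 6 to 7 and 3777 to 5695 in untreated Sca1 cells against mESC. It gave 0 to 2 and 57 to 1517 in NTC against untreated Sca1 cells, and 4 to 5 and 1844 to 4271 in the knock-down against mESC. A group reduced to 1 library was assumed to vary like the others.

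With the library code, the final number of the sample description, as a replicate block, 4, 6, 1 and 4 of the 7 genes and 2826, 5786, 1261 and 3269 genes were called in the knock-down against NTC, untreated Sca1 cells against mESC, NTC against untreated Sca1 cells and the knock-down against mESC. Same-numbered libraries deviated together with correlations of 0.053 between the knock-down and NTC and 0.265 between untreated Sca1 cells and mESC. The block changed 1 call of the 7 genes, Cdx4 in the knock-down against NTC (edgeR adjusted p = 0.0386). With 2 numbers per comparison the correlations do not show that the numbers pair the libraries. With 2 libraries per group, and as few as 6 counts of Meis1 in a knock-down library, small changes of low genes were not detectable at this depth. Leaving out the row NR_046233, chosen after seeing the data, changed no call of the 7 genes.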

Other observations

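Myb, a transcription factor gene of blood progenitors, was at 37.1 and 38.0 CPM in the knock-down, against 12.8 and 12.5 CPM in NTC (log2 1.57 ± 0.20 SE, n = 2 per group; edgeR adjusted p = 3.10e-05), and so moved opposite to Meis1. The call was kept without each library and against untreated Sca1 cells. Trophectoderm markers split in the knock-down against NTC, with 2 of 12 tested higher and 2 lower. Hand1 fell by 2.67 ± 0.56 and Gata2 by 1.12 ± 0.26, while Tfap2c rose by 0.63 ± 0.14 (log2, SE; edgeR adjusted p = 0.0035, 0.00738 and 0.00492), and the other that rose was Eomes. The calls were not firm. That of Hand1 was lost without knock-down replicate 2 (0.152) or NTC replicate 1 (0.0558), that of Gata2 without either knock-down library or NTC replicate 2 (0.0657 to 0.156), and that of Tfap2c without either knock-down library or NTC replicate 1 (0.0529 to 0.105). Against untreated Sca1 cells Hand1 was at -1.44 (0.166) and Gata2 at -0.57 (0.196), and neither was called.

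Hoxd4 and Hoxd3 were higher in NTC than in untreated Sca1 cells, where Meis1 was not called. Hoxd4 was at 52.7 and 43.0 CPM in NTC, against 20.1 and 15.0 CPM in untreated cells (log2 1.42 ± 0.20 SE, n = 2 per group; edgeR adjusted p = 0.000832), and Hoxd3 rose by 1.06 ± 0.16 (adjusted p = 0.0013). Without NTC replicate 1 the adjusted p was 0.0508 for Hoxd4 and 0.0546 for Hoxd3.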
